A study of Mus musculus with 6 samples.

Results

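The Chd8 locus on mouse chromosome 14 was described from reduced representation bisulfite sequencing (RRBS) of neocortex at postnatal day 5. RRBS cuts DNA with MspI at CCGG sites and reads the methylation of the CpGs near the cuts. Its members were the CpGs of chr14:52390000-52570000 (mm39) with at least 10 reads, strands merged, in at least 2 of 3 samples of each genotype. Of 303 CpGs listed there in any library, 167 met this rule, out of 864621 on all autosomes, and 29 of them lay inside Chd8, whose bounds were taken as chr14:52435600-52495240. The groups were 3 Chd8+/- neocortex samples, heterozygous at Chd8, and 3 wild type (WT) neocortex samples of the same age. The labels do not describe the change carried by the Chd8 allele, the strain or the sex, nor whether the samples of a genotype came from separate animals. The p-values below therefore measure the spread between these samples, which may be partly technical, and 3 samples against 3 cannot give an exact permutation p below 0.1.

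Vertebrate DNA is methylated at most CpGs, while CpG islands, the CpG-dense stretches at many promoters, usually stay free of it. CHD8 is an ATP-dependent chromatin remodeller, and loss of 1 copy of its gene is in humans a known cause of an autism-related neurodevelopmental disorder. Supt16 encodes a subunit of the FACT histone chaperone, which handles nucleosomes during transcription and replication. Rab2b encodes a small GTPase of membrane traffic, and Tox4 a DNA-binding HMG-box protein. Mettl3 encodes the catalytic subunit of the enzyme that methylates adenosines in messenger RNA, and Sall2 a zinc finger transcription factor of the spalt family. RefSeq's table for GRCm38.p6 orders these genes as Supt16, Chd8, Rab2b, Tox4, Mettl3 and Sall2, with Tox4 alone on the plus strand. No gene annotation of mm39 was used, so the positions of exons, introns and untranslated regions were not assigned.

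The promoters were placed on mm39 by matching the spacing of CpGs in their RefSeq sequence to the spacing of the listed CpGs. The promoter of Supt16 matched 24 listed CpGs, that of Chd8 19, that of Tox4 15 and that of Rab2b 6, each at a single place on chromosome 14. The next best places matched no more than 5, 4, 5 and 4 CpGs. Mettl3 matched only 3 CpGs, and its place was the best one only within the interval, so it is less sure. Sall2 was not placed. The placed start sites were 52434696 for Supt16, 52495217 for Chd8, 52516603 for Tox4, 52516852 for Rab2b and 52542581 for Mettl3. The Supt16 start thus lay 904 bp from the lower bound of Chd8, and the Tox4 and Rab2b starts lay 249 bp apart on opposite strands. The 3 promoters with the most matched CpGs are shown because they carry the unmethylated islands described next. Each sequence gives the 250 bases before the start, 5′ to 3′ on the strand of the gene (RefSeq, GRCm38.p6), and capitals mark the CpGs that at least 1 library listed.
Chd8: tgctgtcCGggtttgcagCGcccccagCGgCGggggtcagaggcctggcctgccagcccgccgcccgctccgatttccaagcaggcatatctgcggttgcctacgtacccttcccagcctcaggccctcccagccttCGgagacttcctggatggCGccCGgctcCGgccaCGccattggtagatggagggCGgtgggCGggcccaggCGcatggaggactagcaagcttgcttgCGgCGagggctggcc
Supt16: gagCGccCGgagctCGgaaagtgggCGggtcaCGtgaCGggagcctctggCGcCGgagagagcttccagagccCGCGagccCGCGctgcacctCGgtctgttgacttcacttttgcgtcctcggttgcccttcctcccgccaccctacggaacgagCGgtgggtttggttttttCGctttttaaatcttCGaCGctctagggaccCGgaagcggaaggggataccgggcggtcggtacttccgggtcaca
Tox4: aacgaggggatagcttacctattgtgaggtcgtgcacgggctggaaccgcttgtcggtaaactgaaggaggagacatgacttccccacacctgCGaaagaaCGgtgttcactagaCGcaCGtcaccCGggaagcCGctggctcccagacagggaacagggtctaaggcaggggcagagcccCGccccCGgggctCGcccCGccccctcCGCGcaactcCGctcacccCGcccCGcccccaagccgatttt

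The libraries listed 14 of the 20 CpGs in the printed part of the Chd8 promoter, 18 of 28 for Supt16 and 15 of 21 for Tox4. Over 300 bases, the 250 before and 50 after the start, the MspI site CCGG, the same on both strands, occurred 5 times for Chd8, 6 times for Supt16 and 2 times for Tox4. It occurred at least 1 time in 52.8% of the 32851 promoters in the table. The letters CCGGAAGT, an ETS-type sequence that contains the MspI site, were found on either strand 1 time in the Supt16 promoter and 1 time in that of Mettl3. They were not found in the promoters of Chd8, Rab2b, Tox4 and Sall2, and 3.89% of all promoters held them. No library listed the CpG of either match, so its methylation was not read.

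At the Chd8 promoter every listed CpG was read as unmethylated in every sample. A group of 23 listed CpGs at chr14:52494949-52495459 held 0 methylated of 61, 138 and 42 CpG calls in Chd8+/- and 0 of 400, 65 and 160 calls in WT. A count of 0 allows a level of up to 4.92%, 2.17% and 7.14% in Chd8+/- and up to 0.750%, 4.62% and 1.88% in WT. These limits cover counting error only, since a read spans several CpGs and was copied by PCR. The promoter was the least covered of the placed islands, and only 3 of its 23 CpGs met the rule for members. Those 3, at 52495307, 52495311 and 52495329, were listed in 2 of 3 Chd8+/- samples and in all 3 WT samples. They lie just above the bound used for Chd8 and are not among the 29 members inside it.

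Inside Chd8 the libraries held another group of 19 listed CpGs, at chr14:52481598-52482735. Its 10 members, 12.93 to 13.62 kb downstream of the Chd8 start, had little methylation. The 2 CpGs nearest to the start, 52482698 and 52482735, were no members and were methylated: the first read 72.2% in Chd8+/- replicate 3 and 84.4% and 40.0% in 2 WT samples. Over its 9 CpGs with at least 10 reads in all 6 samples the mean methylation was 1.05%, 1.06% and 4.22% in Chd8+/- and 2.44%, 4.01% and 0% in WT. The samples overlapped, with a mean of 2.11% ± 1.83 in Chd8+/- and 2.15% ± 2.02 in WT (SD, n = 3 each). Most of this spread came from 1 CpG at 52482258. It was 0%, 9.52% and 35.0% methylated in Chd8+/- on 26, 21 and 20 reads, and 12.2%, 36.1% and 0% in WT on 74, 61 and 64 reads. Each genotype thus held both the unmethylated and the partly methylated state of that CpG. Its neighbour 26 bp away, 52482284, stayed between 0% and 3.70% in every sample.

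The rest of the Chd8 body was methylated. The 19 members outside the promoter and the inner group averaged 92.8% ± 4.05 in Chd8+/- and 93.6% ± 2.18 in WT. The 8 of these with 10 reads in all 6 samples averaged 95.7%, 88.0% and 87.1% in Chd8+/- and 94.5%, 90.1% and 96.2% in WT. The groups overlapped, and the exact permutation test (two-sided) gave p = 0.3. The CpG at 52478744, 16.5 kb into the gene, varied most: it read 96.2%, 45.9% and 61.0% in Chd8+/- against 80.4%, 71.6% and 85.4% in WT. The CpG at 52449926 was fully methylated in 5 of 6 samples and 79.6% methylated in Chd8+/- replicate 3. With inner group and body together, the 17 Chd8 CpGs covered in all 6 samples averaged 45.6%, 42.0% and 43.2% in Chd8+/- and 45.8%, 44.5% and 45.3% in WT. The difference of −1.58 percentage points (SE 1.12) did not exceed the spread between samples (p = 0.3, exact permutation test; 0.9 after Benjamini-Hochberg adjustment over 6 level comparisons).

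**Figure D1:**
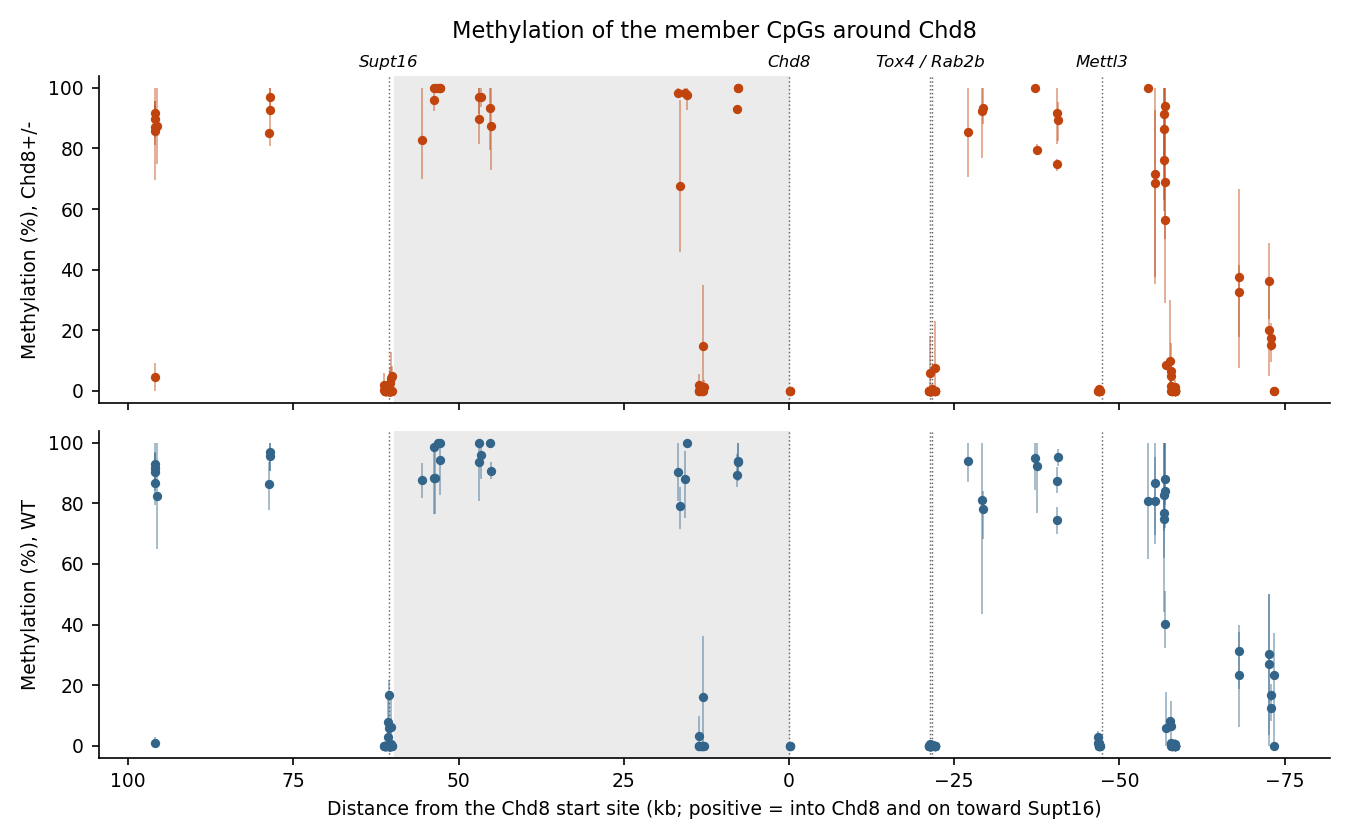
Methylation (percent) of the 167 member CpGs against distance from the Chd8 start in kb, Chd8+/- above and WT below. Points are means over the samples that list a CpG, vertical lines run from the lowest to the highest sample, the shaded band is Chd8 and dotted lines are placed start sites; levels drop to near 0 at each placed start and at most members 12.93 to 13.62 kb into Chd8.

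Coverage was examined because the loss of a stretch of 1 allele would lower it there. All 3 Chd8+/- libraries were less deeply sequenced than the WT ones, with a summed coverage of 39820333, 32285980 and 36887445 reads in Chd8+/- and of 49406794, 54818138 and 45498222 in WT. Reads were therefore expressed as RPM, reads per 1000000 of the coverage summed over autosomal CpGs with 10 to 1000 reads in all 6 samples. The 17 Chd8 CpGs then held 38.4, 43.9 and 32.0 RPM in Chd8+/- and 36.2, 32.7 and 40.4 in WT. The groups overlapped, with a ratio of 1.05 and a log2 ratio of 0.06 (SE 0.16; exact permutation p = 0.8). Of the 63 CpGs listed inside Chd8, these 17 had 10 reads in every sample, and none of them lay in the promoter island. CpGs that fell short of 10 reads in any Chd8+/- sample were thus left out before the comparison. Over the 17 CpGs that remained, coverage was not lower in Chd8+/- by more than the spread between samples. The 8 CpGs of the methylated body ran the other way, with 25.1, 27.0 and 23.7 RPM in Chd8+/- against 19.6, 21.9 and 21.1 in WT. That is a ratio of 1.21 without overlap, at the lowest p the design allows (exact permutation p = 0.1). This set was not among the planned ones, and the permutation p-values for coverage were not adjusted for the number of sets. The 94 CpGs outside Chd8 held 188.5, 186.5 and 186.2 RPM in Chd8+/- against 197.6, 189.1 and 210.6 in WT, a ratio of 0.940, also without overlap (exact permutation p = 0.1). The 111 CpGs of the interval covered in all 6 samples held 227, 230 and 218 RPM in Chd8+/- and 234, 222 and 251 in WT, with overlap (difference −10.4 RPM, exact permutation p = 0.4). The CpGs read only part of the gene, and the labels do not place the mutation, so the genotype labels could not be checked against these data.

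**Figure D2:**
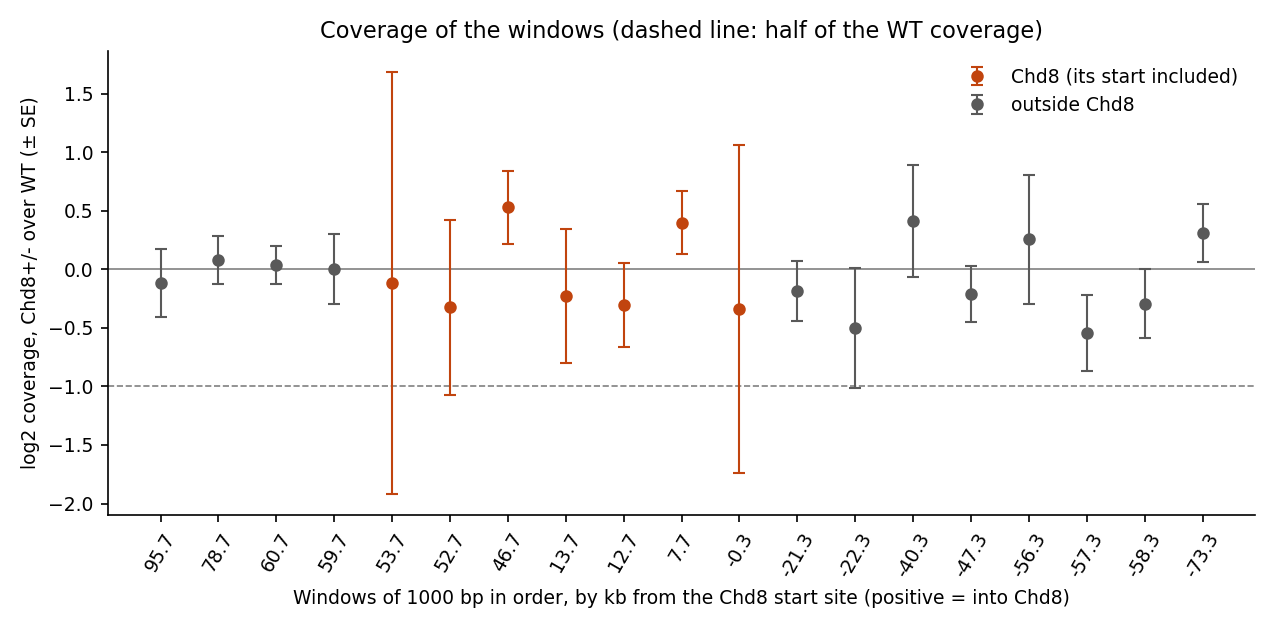
Log2 ratio of coverage, Chd8+/- over WT, with its standard error (edgeR) in the windows of 1000 bp with at least 3 member CpGs, in genome order. Horizontal lines mark equal coverage (0) and 1 of 2 copies (−1); estimates run from −0.54 to 0.53, and the bars of 4 windows, 2 of them inside Chd8 and 1 over its start, reach past −1.

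No window of the interval passed an adjusted p of 0.05 for coverage. Among 19 windows tested with edgeR's quasi-likelihood test, 0 had even an unadjusted p under 0.05, against 1.49% higher and 1.48% lower over 103702 autosomal windows, of which 0% passed the adjusted threshold. DESeq2, run on the same counts, called 55 windows over all autosomes and 0 in the interval. The windows with the smallest p for higher coverage both fell in the Chd8 body. The window starting at 52448001 held 7.68 ± 1.51 RPM in Chd8+/- and 5.48 ± 1.42 in WT (log2 ratio 0.53, SE 0.31, edgeR adjusted p = 1.00). The window starting at 52487001 held 8.45 ± 1.40 in Chd8+/- and 6.57 ± 1.34 in WT (log2 ratio 0.40). Those with the smallest p for lower coverage lay beyond Mettl3, starting at 52552001 and 52553001, with log2 ratios of −0.54 and −0.30. The window over the Chd8 start was too thinly covered to tell a loss of 1 copy from no loss, with 2.25, 2.04 and 0 RPM in Chd8+/-, 3.24, 0.857 and 1.57 in WT, and a log2 ratio of −0.34 with an SE of 1.40. The value of 0 means that Chd8+/- replicate 3 listed none of the 3 members in this window. The same library held 42 calls at other CpGs of the promoter group.

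Single CpGs showed a local coverage difference at the end of the inner Chd8 group. The CpG at 52482258 had 26, 21 and 20 reads in Chd8+/- against 74, 61 and 64 in WT. Scaled, this was 0.961, 0.913 and 0.789 RPM in Chd8+/- against 2.35, 1.74 and 2.18 in WT, a ratio of 0.424. Its neighbour at 52482284, with nearly the same read counts, had a ratio of 0.428. Both were chosen after their values were seen, since they were 2 of the 17 Chd8 CpGs (11.8%) at which every Chd8+/- sample lay below every WT sample. At 1 of the 17 (5.88%), 52487299 in the gene body, every Chd8+/- sample lay above every WT sample, with a ratio of 1.25. At 5.54% of all autosomal CpGs every Chd8+/- sample was likewise lower, and at 4.54% every one was higher. The 3 CpGs from 52482078 to 52482114, 144 bp or more away in the same group, overlapped between the genotypes. Between them and the pair lies the member 52482156, which was not among the 17 because Chd8+/- replicate 3 did not list it. It had 11 and 17 reads in Chd8+/- replicates 1 and 2 against 37, 40 and 23 in WT. For the 9 CpGs of the group covered in all 6 samples, the scaled coverage was 13.3, 16.9 and 8.25 in Chd8+/- and 16.7, 10.8 and 19.3 in WT (ratio 0.823, exact permutation p = 0.6). Across the interval 1 of 111 CpGs was higher and 7 were lower without overlap, that is 0.901% and 6.31%. The share that was lower was near the autosomal one, and the share that was higher was below it. A strand with under 10 reads is missing from the counts of a sample, and its effect on these coverage differences was not tested.

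**Figure D3:**
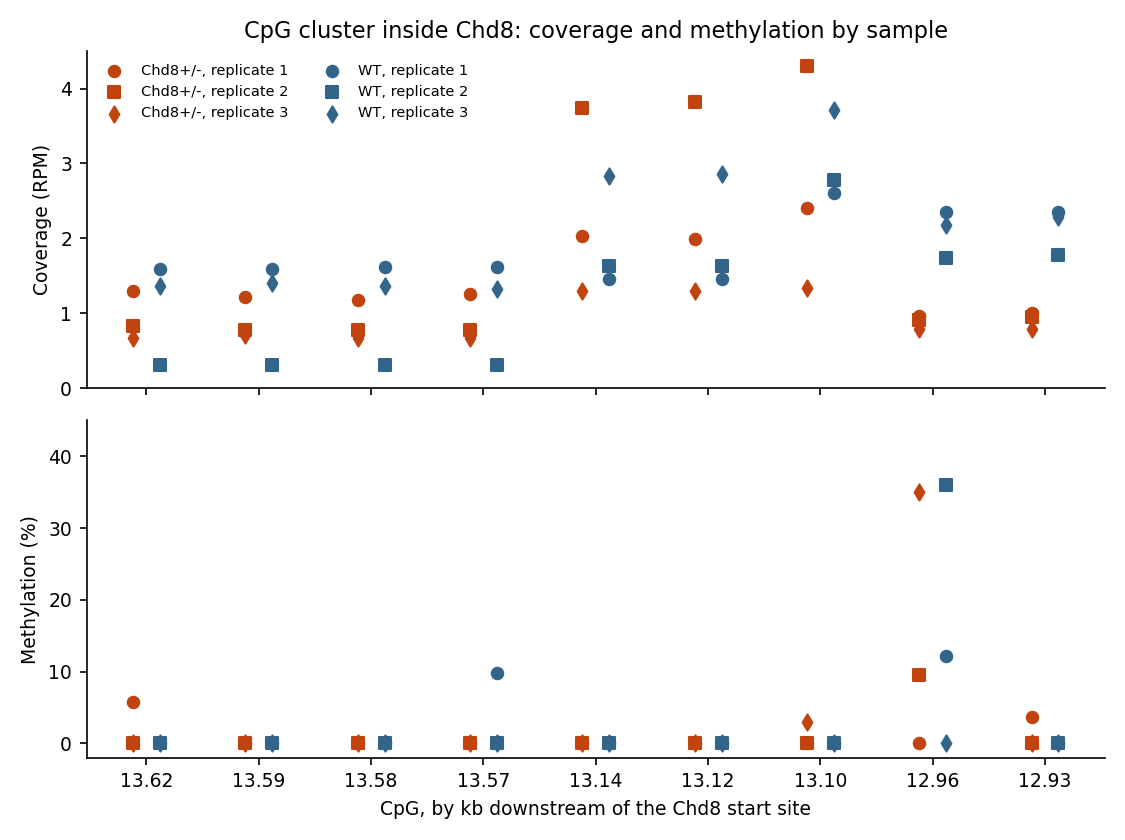
The 9 CpGs of the inner Chd8 group covered in all 6 samples, by distance downstream of the Chd8 start in kb, with scaled coverage in RPM above and methylation in percent below; Chd8+/- stands left of WT at each CpG. Coverage separates the genotypes at the 2 CpGs nearest to the Chd8 start, and methylation departs from near 0 mainly at 12.96 kb.

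Because the tables hold only cytosines with at least 10 reads, shallow libraries list fewer CpGs. The interval had 168, 186 and 192 listed CpGs in Chd8+/- and 243, 237 and 218 in WT. Of 229 CpGs listed in at least 3 samples, 5 were listed in all WT samples and in no Chd8+/- sample (2.18%), against 2.63% over all autosomes. The reverse held for 0 of 229, against 0.179% over all autosomes. Inside Chd8 the first count was 4 of 47 (8.51%). With a minimum of 20 reads it was 1 of 25 (4%) inside Chd8, against 3.89% over all autosomes. Of the 4 at the minimum of 10 reads, 52494949, 52494959 and 52494993 stand together in the Chd8 promoter island. They carried only 10 to 21 reads in WT, with similar counts in each sample. The other was 52479401 in the gene body, with 25, 12 and 16 reads in WT. Unlisted means under 10 reads on each strand and not 0, and the effect of depth on these 4 CpGs was not tested. As an example of the rule itself, the CpG at 52439725 was a member with 10, 14 and 10 reads in Chd8+/- and 11 and 30 reads in 2 WT samples. The CpG at 52439665, listed in all WT samples but in only 1 Chd8+/- sample with 12 reads, was not.

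The island with the most listed CpGs was that of Supt16. Its dense stretch, defined as CpGs with over 10 listed CpGs within 250 bp on either side and gaps of at most 500 bp, covered chr14:52434092-52435168 with 73 listed CpGs and 42 members. Of the 42 members, 32 were at 0% in every sample that listed them. Over the 32 CpGs covered in all 6 samples the level was 0.685%, 0.260% and 0.248% in Chd8+/- and 0.326%, 0% and 0.0187% in WT. The difference was 0.28 points (SE 0.178), with overlap and an exact permutation p of 0.3 (0.6 adjusted over 3 stretches). Scaled coverage of the stretch was 59.3, 64.3 and 64.9 RPM in Chd8+/- and 58.9, 59.1 and 64.2 in WT. This island therefore differed in neither measure by more than its samples did. Within it, 52434138, 52434149 and 52434178, which had nearly the same read counts, had lower scaled coverage in each Chd8+/- sample than in any WT sample. The first of them had 24, 19 and 23 reads in Chd8+/- against 50, 52 and 36 in WT, a scaled ratio of 0.609. Here too, strands with under 10 reads are not counted.

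Tox4 and Rab2b shared 1 unmethylated stretch that spans both of their opposed starts, chr14:52516446-52516876, with 27 listed CpGs and 21 members. Over the 10 CpGs covered in all 6 samples the level was 2.04%, 0% and 0% in Chd8+/- and 0.281%, 0% and 0% in WT (exact permutation p = 1). Among these 10 CpGs only replicate 1 of each genotype held any methylated read. Its scaled coverage was 26.0, 18.3 and 20.2 RPM in Chd8+/- against 31.0, 28.4 and 28.7 in WT. Every Chd8+/- sample was thus lower (ratio 0.732, log2 ratio −0.47, SE 0.157), at the lowest p the design allows (exact permutation p = 0.1). The 1000 bp window that holds most of the stretch, tested with all windows, had an edgeR log2 ratio of −0.18 (SE 0.26), with the samples overlapping.

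Near the placed Mettl3 start, 19 listed CpGs at chr14:52541904-52542552 were unmethylated. The 10 members among them averaged 0.212%, 0% and 0% in Chd8+/- and 0%, 0.575% and 0.811% in WT. The CpG at 52541945 was 0% in all 3 Chd8+/- samples and 0%, 3.53% and 4.97% in WT, on 56 to 161 reads (edgeR log2 change −4.13, unadjusted p = 0.0234, adjusted p = 1). A further unmethylated stretch lay on the Sall2 side, 10.9 kb beyond the Mettl3 start, at chr14:52553503-52553680. Its 9 CpGs covered in all 6 samples averaged 0.258%, 0.383% and 0% in Chd8+/- and 0%, 0.236% and 0% in WT (exact permutation p = 0.4). Since the Sall2 promoter was not placed, this stretch was assigned to no gene.

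All 87 dense members of the interval had a mean level under 10%, against 91.5% of the 11515 dense CpGs on the rest of chromosome 14. Averaged over the 60 dense CpGs covered in all samples, the level was 0.772%, 0.196% and 0.181% in Chd8+/- and 0.221%, 0.0725% and 0.00998% in WT. The rest of the chromosome averaged 7.07% ± 0.105 in Chd8+/- and 6.98% ± 0.0291 in WT at such CpGs. The sparse members were divided, with 28 of 80 under 10%, 14 between 10% and 80%, and 38 over 80%. They averaged 47.3%, 47.9% and 47.2% in Chd8+/- and 44.4%, 48.2% and 48.4% in WT.

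The methylated CpGs outside Chd8 were less even from sample to sample than the islands. On the Supt16 side, the 3 CpGs of chr14:52416540-52416696 averaged 85.7%, 93.5% and 95.5% in Chd8+/- and 89.7%, 91.4% and 97.8% in WT. They were deeply read, with 424 to 482 calls per sample in Chd8+/- and 493 to 718 in WT. On the Sall2 side the level changed over a short distance. The 3 CpGs from 52551932 to 52551971 ranged from 59.5% to 100% in Chd8+/- and from 44.0% to 100% in WT. The CpG at 52552221 read 9.52%, 7.89% and 8.11% in Chd8+/- and 0%, 17.8% and 0% in WT. The 4 CpGs from 52553011 to 52553056 ran from 0% to 15.7% in Chd8+/- and from 0% to 14.8% in WT. Farther out, 52563331 took intermediate and uneven levels of 66.7%, 38.5% and 7.69% in Chd8+/- and 6.25%, 24.0% and 40.0% in WT on 13 to 39 reads. Over the CpGs covered in all 6 samples, the median range between samples was 0 points for those under 10%, 50 points for those between 10% and 80%, and 19.3 points for those over 80%.

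**Figure D4:**
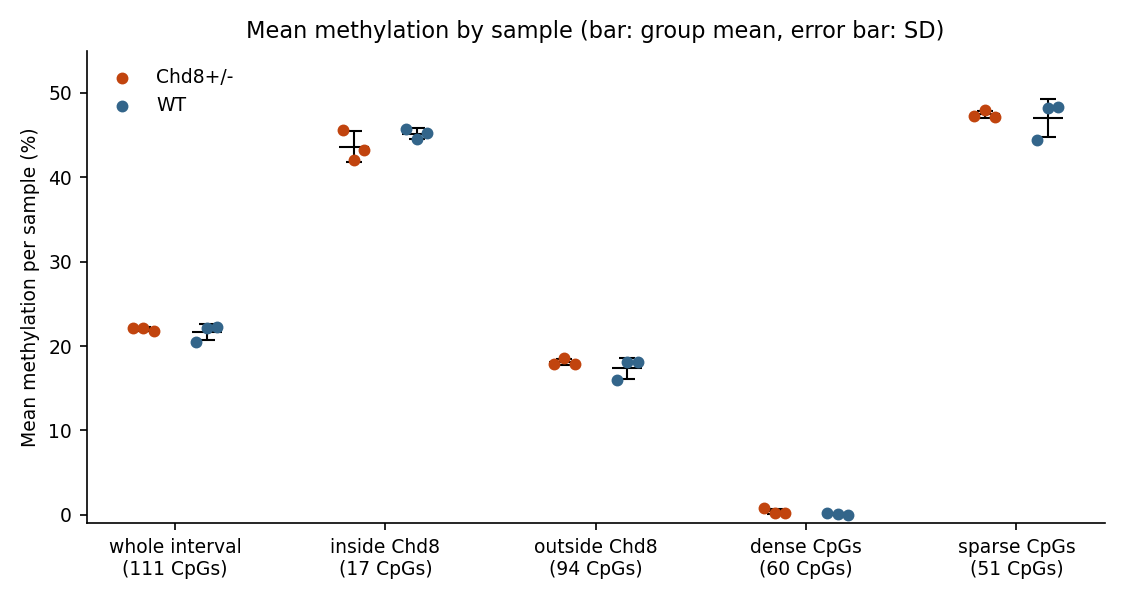
Mean methylation (percent) of each sample over the CpGs with at least 10 reads in all 6 samples, with Chd8+/- left of WT; bars and error bars are the group mean and SD (n = 3). The genotypes overlap in each of the 5 sets, and WT replicate 1 is the lowest sample in the sparse set, at 44.4%.

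With the CpGs of the whole locus averaged, the genotypes overlapped. The 111 CpGs covered in all 6 samples averaged 22.1%, 22.1% and 21.8% in Chd8+/- and 20.5%, 22.2% and 22.2% in WT, a difference of 0.37 points (SE 0.573, exact permutation p = 1). The CpGs outside Chd8 differed by 0.72 points (SE 0.746), the dense ones by 0.28 (SE 0.204) and the sparse ones by 0.47 (SE 1.31). With a minimum of 20 reads the interval differed by 0.60 points, the CpGs outside Chd8 by 1.31 and the sparse ones by 0.81, each at the lowest p the design allows (exact permutation p = 0.1). The 10 sparse CpGs between the Tox4 and Mettl3 starts did not overlap at the main minimum either, with 44.4%, 45.1% and 45.2% in Chd8+/- against 44.2%, 43.5% and 38.5% in WT (difference 2.86 points, SE 1.81, exact permutation p = 0.1). They include 52524596, 52535766 and 52535836, chosen after their values were seen and described below, and 52524441, at 43.5% in WT replicate 3. The sparse CpGs on the Supt16 side (difference −0.57 points, exact permutation p = 0.7) and beyond the Mettl3 start (difference 1.71 points, SE 4.53) overlapped between the genotypes. The rest of chromosome 14 was itself higher in every Chd8+/- sample, with 49.6%, 49.8% and 50.7% against 49.4%, 49.4% and 49.5% in WT (exact permutation p = 0.1). Its sparse CpGs differed by 0.81 points (SE 0.462, exact permutation p = 0.1), also without overlap. Relative to the rest of chromosome 14, the interval stood at −28.0 ± 0.789 points in Chd8+/- and −27.8 ± 0.941 points in WT. The difference between genotypes, −0.23 points (SE 0.709), had an exact permutation p of 0.5, and the 6 level comparisons had adjusted p-values from 0.9 to 1. Replicate 3 of both genotypes had a higher share of coverage on chromosome X, 2.56% in Chd8+/- and 2.58% in WT, against 1.18% to 1.21% in the other 4 libraries. Within replicates 1 and 2 alone the interval differed by 0.78 points and the inside of Chd8 by −1.34 points (exact permutation p = 1 and p = 0.667).

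Of 83 interval CpGs tested with edgeR's quasi-likelihood test, 0 passed an adjusted p of 0.05 and 0% of the 609673 autosomal CpGs tested did so. The test took only CpGs with at least 1 methylated and 1 unmethylated read over the samples. The 82 of 167 members at 0% in every sample that listed them were therefore not tested. At an unadjusted p under 0.05 there were 4 in the interval, while 1.75% of autosomal CpGs were higher and 1.27% lower at that level. The limma test called 0 as well. None of 18 windows was called, with 0 at an unadjusted p under 0.05 and an autosomal background of 2% higher and 1.57% lower. The CpGs with the smallest p for a higher level all lay in sequence with little methylation. On the Sall2 side 52553052 was 0%, 8.85% and 5.88% in Chd8+/- and 0% in all WT samples, with an unadjusted p of 0.00113 and an adjusted p of 1. In the Supt16 island 52434789 was 7.92% in Chd8+/- replicate 3 and 0% elsewhere, and near the Rab2b start 52516860 was 2.22% in Chd8+/- replicate 1 and 0% elsewhere. Among those lower in Chd8+/-, 52434620 in the Supt16 island was 0% in all 3 Chd8+/- samples against 11.5% and 21.7% in the 2 WT samples that listed it (unadjusted p = 0.0889). The others were 52541945 near Mettl3 and 52449926 in Chd8, described above. The windows with the smallest p for a higher level started at 52435001 and 52517001. The latter owed its level to Chd8+/- replicate 3 alone, with 8.11% there and 0% in the other 5 samples. The window starting at 52435001 read 7.34%, 0.901% and 0% in Chd8+/- and 0.690%, 0% and 0% in WT. Those with the smallest p for a lower level started at 52552001 and 52448001. The first held 33.5% ± 13.9 in Chd8+/- and 44.9% ± 9.73 in WT, and the second 94.6% ± 3.10 in Chd8+/- and 96.3% ± 6.42 in WT. The window starting at 52552001 pooled the reads of 5 CpGs that not all samples listed. Of these, only 52552070 had a lower mean in Chd8+/- than in WT (69.0% against 83.9%). Chd8+/- replicate 2, at 17.5%, listed neither 52552050 nor 52552070. Of its 103 calls in the window, 76 came from 52552221, a CpG with little methylation.

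Among the 111 CpGs, 2 were higher in every Chd8+/- sample than in any WT sample and 1 was lower, against 3.48% and 2.32% of autosomal CpGs. Inside Chd8 both counts were 0 of 17. All 3 lay between the Tox4 and Mettl3 starts, in methylated sequence, and were chosen after their values were seen. The CpG at 52535766 read 93.5%, 100% and 81.4% in Chd8+/- against 75.0%, 78.7% and 70.0% in WT. The CpG at 52535836, 70 bp away, ran the other way with 72.5%, 76.5% and 75.4% in Chd8+/- against 86.8%, 92.1% and 83.3% in WT. The last, 52524596, read 88.0%, 92.2% and 100% in Chd8+/- against 82.2%, 68.1% and 84.0% in WT.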

How the data were processed

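RRBS libraries of 6 neocortex samples, 3 Chd8+/- and 3 WT, were used. Per the labels' protocols, DNA was cut with MspI, size selected, pooled, treated with bisulfite and amplified. Bismark 0.20.0, SAMtools 1.9, Trim Galore 0.4.4 and the mm39 build are listed in the submitters' processing notes; their settings and any deduplication are not given in the sources used here. Coverage is a count of reads per CpG cytosine, deposited for cytosines with at least 10 reads. The methylation level was deposited as percent of reads. The authors' conversion statistics give 0.327% to 0.348% of cytosines outside CpGs unconverted in Chd8+/- and 0.316% to 0.321% in WT.

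Strands were merged by adding reads (minus strand position less 1). The deposited minimum of 10 reads held for each strand, so a strand below it adds nothing to a merged count. Methylated reads were coverage times percent, whole within 0.02 for at least 99.9556% of cytosines in each library. A sample that does not list a CpG entered the fits with 0 reads there. Levels are unweighted means over CpGs with 10 reads in all 6 samples unless stated otherwise, compared by exact two-sided permutation tests. Methylated and unmethylated counts, and coverage counts in fixed 1000 bp windows with at least 3 CpGs, were tested over all autosomes with edgeR 4.0.16 (quasi-likelihood, Benjamini-Hochberg), with limma 3.58.1 and DESeq2 1.42.0 as alternatives in R 4.3.3; Python 3.11.15 and scipy 1.17.1 did the rest. The fits were tested on simulated counts. The simulated methylation change was made large after smaller ones were poorly recovered; edgeR then found most changed CpGs but only a minority of changed methylation windows. For coverage the simulated loss was larger than that of 1 allele. The absence of calls therefore leaves smaller differences undetected, a coverage loss of 1 allele in a single window among them. Across CpGs, deviations of same-numbered replicates correlated at 0.000833 to 0.00456 and those of differently numbered ones at −0.00662 to 0.00421. The main tests are unpaired. These correlations cannot exclude a pairing, since replicate 3 of both genotypes had the higher share of coverage on chromosome X. The reads inside the interval summed to 7383, 6100 and 6423 over the members in Chd8+/- and 8847, 9434 and 8594 in WT. PCR copies are not independent molecules, so limits from counts cover counting error only.

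The interval, members and lists were chosen with earlier results of these data known. The text names the member genes placed by promoter, each dense stretch with at least 10 members, the 3 CpGs and 2 windows of the interval with the smallest edgeR p in each direction, and 2 windows in each direction for coverage. RefSeq sequences follow GRCm38.p6, so no coordinates were taken from them.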

Additional observations from a re-analysis of the deposited data

How the results depend on the processing

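With 3 samples a genotype no level comparison could pass a threshold of 0.05, so signs below belong to differences that passed no test. The interval difference (Chd8+/- minus WT, percentage points) turned to −0.38 over all members, and it ran from −0.17 to 0.60 with each sample left out. Over all members the CpGs outside Chd8 turned to −0.27, dense CpGs to −0.094 and sparse CpGs to −0.18. Weighting by reads turned the Chd8 difference to 6.89 and moved that of the interval to 3.42. The interval relative to the rest of chromosome 14 turned to 0.17 with a minimum of 20 reads, to 0.79 weighted by reads and to 0.50 with replicates 1 and 2 only, a choice made after seeing the data. With replicates 1 and 2 only, the scaled coverage of the interval was 0.823 RPM higher in Chd8+/-, against −10.4 RPM with all samples. The cause of these turns was not tested.

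With each sample left out, over the CpGs then covered in all remaining samples, the difference ran from −2.44 to 0.14 inside Chd8, −0.22 to 0.36 for dense CpGs, −0.76 to 1.07 for sparse CpGs, −0.64 to 0.39 for the Supt16 stretch and −0.094 to 0.93 for the Tox4 and Rab2b stretch. Coverage inside Chd8 ran from −2.09 to 4.10 RPM. Autosomal CpGs called by edgeR numbered 0 to 1, none of them in the interval. DESeq2 called 55 coverage windows over all autosomes where edgeR called 0. The replicate number as a block left the differences as they were, with exact paired permutation p = 1 for the interval, 0.25 inside Chd8, 0.5 outside Chd8, 0.25 for dense and 1 for sparse CpGs and 0.75 relative to chromosome 14, and 0 calls in each edgeR fit. The Sall2 side stretch had no CpG left at a minimum of 20 reads. Depth limits the Chd8 promoter most, where no CpG had 10 reads in all 6 samples.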

Other observations

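Near the lower end of the interval, on the Supt16 side, 2 neighbouring CpGs had opposite states on similar numbers of reads. The CpG at 52399225 was 9.09%, 4.35% and 0% methylated in Chd8+/- and 3.03%, 0% and 0% in WT. The CpG at 52399237, 12 bp away, was 83.9%, 95.7% and 81.2% methylated in Chd8+/- and 100%, 86.8% and 84.2% in WT. Only the minus strand was listed for either, with 33, 23 and 34 reads at the first and 31, 23 and 32 at the second in Chd8+/-, and 33, 68 and 19 reads at each in WT. The next CpGs, 52399264 and 52399273, were 79.4% to 96.9% methylated in all 6 samples. Pairs at most 20 bp apart, with 1 CpG low and the other high in all samples in this way, numbered 1 of 51 in the interval and 11 of 191202 on all autosomes (0.00575%). The pair was chosen after its values were seen. On 1 strand alone, a C-to-T difference from the reference would also read as unmethylated, and this was not tested.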
